A study of Mus musculus with 52 samples.

Results

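Kidneys of 3-month-old female C57BL/6 mice were compared with those of 1-month-old females of the same strain by RNA sequencing of whole kidney. The samples were the 3 libraries titled total kidney of C57BL/6 at 3 months and the 3 titled so at 1 month, 6 of the 52 libraries of the series, and each library carries the number of a separate mouse in its labels. The C57BL/6 females, labelled healthy, were age-matched controls to NZB/W-F1 females, offspring of New Zealand Black mothers and New Zealand White fathers and a model of lupus in which nephritis develops with age. Animals were perfused with PBS before kidney, spleen and brain were taken. The labels name no engineered allele and no drug in any group. Besides the 3-month and 1-month C57BL/6 kidneys, the text uses C57BL/6 kidneys of 6 months, NZB/W-F1 kidneys of 3 months (labelled as before autoimmunity) and of 1 month (labelled as asymptomatic and before puberty), each with 3 libraries. For the clock genes it also uses C57BL/6 brains (3 per age) and spleens (2 of 3 months and 3 of 1 month).

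Between these ages a female mouse passes through puberty and reaches adult size. Nephrons of the mouse stop forming soon after birth, so later growth comes mostly from longer tubules and larger cells. The proximal tubule reclaims glucose, amino acids and phosphate, takes up organic anions and drugs from the blood, makes glucose and activates vitamin D. Many of its genes differ between male and female mice once sex hormones and the adult pattern of growth hormone are present, and others follow the daily clock or the diet.

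Reads counted in genes numbered 6299741, 6409187 and 11104483 in the 3-month libraries and 5456869, 9636183 and 11423419 in the 1-month libraries. Levels are given in CPM, reads scaled by library size on the scale the authors deposited, and 3 reads in a library correspond to 0.222 to 0.376 CPM at 3 months and 0.192 to 0.402 CPM at 1 month. Fold changes are 3 months over 1 month, from limma on log2(CPM + 0.5), a scale that understates the change of genes with few reads, and a gene was called where the p adjusted over all genes tested was under 0.05. Xist, the RNA of the silenced X chromosome of females, was present in all 6 libraries (368, 418 and 423 CPM at 3 months against 484, 524 and 472 CPM at 1 month), and so were markers of the proximal tubule (Slc34a1), thick limb (Umod), collecting duct (Aqp2) and podocyte (Nphs1). One library stood apart before any comparison: 3-month replicate 3 differed from 3-month replicates 1 and 2 by a chi-square per gene of 41.5 and 34.6, while replicates 1 and 2 differed from each other by 6.04 and the 1-month pairs by 10.04 to 11.41. Reads aligned to more than 1 place made up 21.7, 19.6 and 16.9% of the reads in the 3-month libraries, against 14.1, 14.5 and 15.3% in the 1-month libraries. The results are given with and without replicate 3, and with replicate 3 as the lone 3-month library, whose spread is then taken from the other groups. Whether the mouse or its library differs was not tested. For the clock genes alone, brain libraries of the same animals are set beside the kidneys further on.

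Of 14373 genes tested, 2475 were called (17.2%), of which 1201 were higher (8.36% of all genes) and 1274 lower (8.86%) in 3-month than in 1-month kidneys. The quasi-likelihood test of edgeR on the recovered reads called 2201 (8.45% of genes higher and 6.86% lower), of which 2134 were among the limma calls in the same direction. In 36.6% of all genes the 3 libraries of one age did not overlap those of the other. Change of 2-fold or more was estimated for 708 of the called genes, and the median log2 fold change over all genes was 0.01. In 66.3% of the called genes 3-month replicate 3 was the 3-month library nearest to the 1-month mean, against 50.9% of all genes. Without replicate 3 there were 3930 calls (27.3% of genes, 13.3% higher and 14.1% lower), 2292 of them among the 2475, and with replicate 3 alone 327 (2.28% of genes, 1.66% higher and 0.612% lower), of which 293 were among the 2475. Leaving out any other single library gave 977 to 1537 calls, with 977 without 3-month replicate 1 and 1105 without 3-month replicate 2, and 1537, 1126 and 1215 without 1-month replicates 1, 2 and 3. In all 6 fits that left out 1 library 762 genes were called in the same direction, 435 higher and 327 lower.

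**Figure D1:**
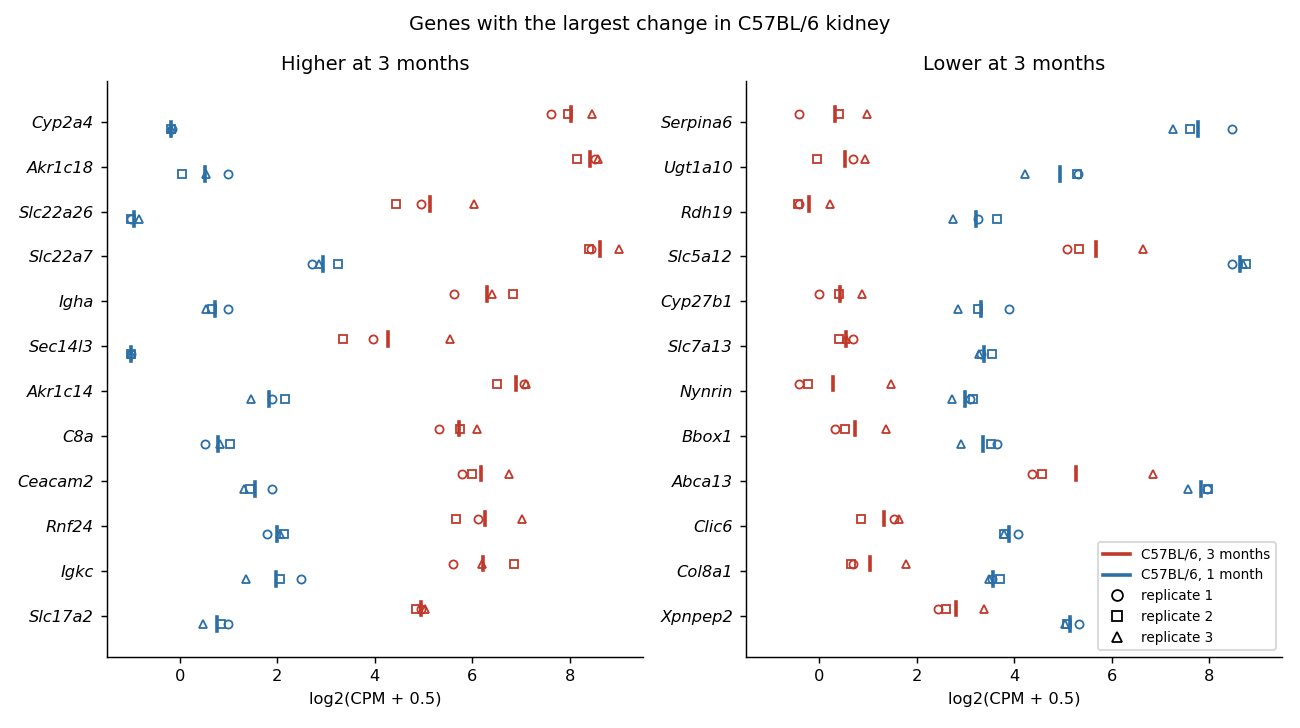
Levels of the 12 genes with the largest rise (left) and the 12 with the largest fall (right), as log2(CPM + 0.5) on the horizontal axis, in each 3-month (red) and 1-month (blue) C57BL/6 kidney; symbols mark the replicates and the short bars the group means. In each of the 24 genes the 3 red symbols lie on one side of the 3 blue ones, and the means of Cyp2a4 stand 8.18 apart.

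Among called genes with at least 5 CPM at 1 of the ages and no overlap between the ages, the 4 largest rises were those of Cyp2a4, Akr1c18, Slc22a26 and Slc22a7. The first pair act on steroids and the others, described further on, belong to a family of organic ion carriers. Cyp2a4, a cytochrome P450 that hydroxylates steroids (chr7:26307169-26315088, plus strand, GRCm38), was at 195, 250.3 and 351 CPM in the 3-month kidneys, against 0.402, 0.383 and 0.384 CPM in the 1-month kidneys (log2 fold change 8.18 ± 0.36 (SE), limma adjusted p = 8.5e-10). Akr1c18, which inactivates progesterone (chr13:4132615-4150654, minus strand), was at 368, 281 and 379 CPM in the 3-month kidneys, against 1.47, 0.535 and 0.959 CPM in the 1-month kidneys (log2 fold change 7.88 ± 0.61 (SE), limma adjusted p = 6.9e-07). Both were low in every 1-month kidney and high in every 3-month kidney, and replicate 3 held the highest level of each. Akr1c14, a hydroxysteroid dehydrogenase of the family of Akr1c18, was at 133, 90.5 and 136 CPM in the 3-month kidneys, against 3.21, 3.98 and 2.24 CPM in the 1-month kidneys (log2 fold change 5.05 ± 0.34 (SE), limma adjusted p = 1.4e-07). The counts of Cyp2a4 are uncertain, since 58.1% of its 31-base words also occur in the near-identical Cyp2a5, which was at 14.7, 18.99 and 49.7 CPM in the 3-month kidneys, against 14.1, 12.2 and 13.2 CPM in the 1-month kidneys.

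The 300 bases around the start site of the pair with the largest rises are shown because these genes lay near the floor of detection at 1 month and above 100 CPM at 3 months, and that of Cyp27b1, described further on, as a gene that fell. They run from 250 bases before to 50 bases after the annotated start, are taken from RefSeq on GRCm38.p6, and lie at chr7:26306942-26307241 (plus strand) for Cyp2a4, chr13:4150597-4150896 (minus strand) for Akr1c18 and chr10:127047996-127048295 (plus strand) for Cyp27b1. Capitals mark matches, on either strand, to GTTAAT (a half-site of HNF1, a proximal tubule factor), TTCNNNGAA (STAT5, through which growth hormone and prolactin act) and CAAAGTCCA (HNF4).
Cyp2a4: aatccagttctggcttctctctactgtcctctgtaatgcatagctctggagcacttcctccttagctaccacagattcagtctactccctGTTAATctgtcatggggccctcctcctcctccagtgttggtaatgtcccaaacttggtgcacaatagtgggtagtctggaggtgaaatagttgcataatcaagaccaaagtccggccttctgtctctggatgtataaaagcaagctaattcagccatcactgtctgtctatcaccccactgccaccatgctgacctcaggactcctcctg
Akr1c18: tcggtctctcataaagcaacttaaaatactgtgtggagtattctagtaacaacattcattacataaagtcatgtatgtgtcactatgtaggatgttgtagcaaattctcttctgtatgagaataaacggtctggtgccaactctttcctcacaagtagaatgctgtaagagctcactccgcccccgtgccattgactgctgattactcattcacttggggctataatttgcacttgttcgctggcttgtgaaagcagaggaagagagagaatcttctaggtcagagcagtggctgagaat
Cyp27b1: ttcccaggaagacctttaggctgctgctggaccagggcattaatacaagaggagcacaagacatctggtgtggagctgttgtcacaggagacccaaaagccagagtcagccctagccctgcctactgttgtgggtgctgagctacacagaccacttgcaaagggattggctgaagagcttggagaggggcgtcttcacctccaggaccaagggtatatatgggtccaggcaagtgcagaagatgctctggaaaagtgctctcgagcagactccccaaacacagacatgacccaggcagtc
The Cyp2a4 window held 1 match, to the HNF1 letters, 160 bases before the start, and neither of the other windows held a match to any of the 3 motifs. Over all 32851 RefSeq windows of this length, 7.10% held GTTAAT, 8.30% TTCNNNGAA and 0.475% CAAAGTCCA, so that a match to the first or second is common; the motifs do not overlap in these windows.

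Genes known to be higher in the kidneys of female mice were called higher more often than lower. Of the 10 genes of that list, 6 rose and 3 fell, with a median log2 fold change of 1.47 against 0.01 over all genes. The 6 that rose were Akr1c18, Akr1c14, Slc7a12, Aadat, Abcc3 and Fmo5. Slc7a12, an amino acid transporter, was at 123, 116 and 224 CPM in the 3-month kidneys, against 34.4, 77.6 and 54.0 CPM in the 1-month kidneys (log2 fold change 1.48 ± 0.39 (SE), limma adjusted p = 0.019). Aadat, a transaminase that turns kynurenine into kynurenic acid, was at 1082, 994 and 1707 CPM in the 3-month kidneys, against 449, 462 and 350.5 CPM in the 1-month kidneys (log2 fold change 1.55 ± 0.24 (SE), limma adjusted p = 0.00086). Fmo5, a flavin monooxygenase, was at 60.4, 51.3 and 41.0 CPM at 3 months against 13.5, 24.9 and 17.5 CPM at 1 month, and Abcc3, an exporter of conjugates, rose as well (log2 fold change 1.58, adjusted p = 0.0080). In each of these genes every 3-month kidney was above every 1-month kidney. Against that direction, Cyp4a14, a fatty acid hydroxylase, fell, with 238, 218 and 427 CPM in the 3-month kidneys, against 1157, 704 and 545 CPM in the 1-month kidneys (log2 fold change -1.44 ± 0.32 (SE), limma adjusted p = 0.0073), and so did Kynu and Slc22a29 (log2 fold change -0.79, adjusted p = 0.029, and -0.63, adjusted p = 0.025). Akr1c21, a hydroxysteroid dehydrogenase of the kidney, was at 385, 423 and 742 CPM at 3 months against 248, 294 and 297 CPM at 1 month (log2 fold change 0.83, adjusted p = 0.056). Prlr, the prolactin receptor, did not pass the test (283, 189.5 and 289 CPM at 3 months against 223, 254 and 210.0 CPM at 1 month; log2 fold change 0.13, adjusted p = 0.70). In this list, 6 rises and 3 falls were called without 3-month replicate 3, against 3 rises and no fall with that replicate as the lone 3-month library. Abcc3, Akr1c18, Akr1c14, Aadat and Fmo5 kept their calls whichever library was left out. Slc7a12 lost its call without each of 1-month replicates 1 and 3 in turn (adjusted p 0.053 to 0.082). Slc22a29 lost its call without each of 3-month replicates 1 and 2 and 1-month replicates 2 and 3 in turn (adjusted p 0.075 to 0.11). Kynu lost its call in every fit that left out 1 library except that without 3-month replicate 3 (adjusted p 0.060 to 0.16).

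Some genes known to be higher in male kidneys changed as well, in these females. Of 13 tested members of that list 4 rose and 1 fell (median 0.00). Kap, the kidney androgen-regulated protein, was at 20650, 21890 and 21820 CPM in the 3-month kidneys, against 10100, 8794 and 7557 CPM in the 1-month kidneys (log2 fold change 1.29 ± 0.33 (SE), limma adjusted p = 0.016). Slc22a30, a carrier of the organic anion family, was at 10.4, 14.4 and 19.3 CPM at 3 months against 2.01, 2.83 and 4.92 CPM at 1 month (log2 fold change 2.05, adjusted p = 0.0014), and Slc22a28 and Serpina1f rose with log2 fold changes of 1.02, adjusted p = 0.036, and 0.70, adjusted p = 0.019. Slc7a13, a carrier of cystine and acidic amino acids, fell to 1.13, 0.831 and 0.963 CPM in the 3-month kidneys, against 9.504, 11.2 and 9.15 CPM in the 1-month kidneys (log2 fold change -2.83 ± 0.21 (SE), limma adjusted p = 6.1e-07). Its levels did not overlap between the ages, and replicate 3 lay with replicates 1 and 2. Of 15 tested receptors of sex hormones and enzymes of steroid metabolism none rose and 3 fell. Esr1, the estrogen receptor, had 6.14, 6.76 and 11.5 CPM at 3 months against 18.2, 20.8 and 15.2 CPM at 1 month (log2 fold change -1.15, adjusted p = 0.0095). Nr3c1, the glucocorticoid receptor, had 54.1, 54.1 and 75.5 CPM at 3 months against 90.6, 107 and 102 CPM at 1 month (-0.71, adjusted p = 0.010), and Srd5a1, a reductase of testosterone, fell by less (-0.56, adjusted p = 0.043). The ages did not overlap in these 3. Without 3-month replicate 3 the counts were 3 higher and 3 lower (2 and 1) in the list of genes higher in males and 1 higher and 4 lower (0 and 0) in the steroid list, with the counts for replicate 3 as the lone 3-month library in brackets. Esr1 lost its call without 3-month replicate 1 (adjusted p = 0.054). Nr3c1 lost its call without each of 3-month replicates 1 and 2 in turn (adjusted p 0.052 to 0.055). Kap lost its call without each of 3-month replicate 2 and 1-month replicates 2 and 3 in turn (adjusted p 0.053 to 0.067). Serpina1f lost its call without each of 3-month replicate 1 and 1-month replicates 2 and 3 in turn (adjusted p 0.062 to 0.082). Slc22a28 lost its call in every fit that left out 1 library except that without 1-month replicate 3 (adjusted p 0.051 to 0.13). Srd5a1 lost its call in every fit that left out 1 library except that without 3-month replicate 3 (adjusted p 0.084 to 0.19).

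Carriers of organic ions and drugs rose more often than they fell, 9 of 22 against 2 of 22 (median 0.52). These proteins take anions, cations and drugs across the basolateral or brush border membrane of the proximal tubule. Slc22a7, the organic anion transporter OAT2, had 344, 337 and 516 CPM in the 3-month kidneys, against 6.02, 8.95 and 6.72 CPM in the 1-month kidneys (log2 fold change 5.68 ± 0.25 (SE), limma adjusted p = 8.5e-10). Slc22a19, a carrier of steroid sulfates in rodents, had 245, 197 and 379 CPM in the 3-month kidneys, against 32.4, 45.1 and 39.0 CPM in the 1-month kidneys (log2 fold change 2.76 ± 0.28 (SE), limma adjusted p = 1.4e-05). Slc22a13, a carrier of urate and nicotinate, had 142, 139.9 and 188 CPM at 3 months against 39.5, 44.5 and 35.0 CPM at 1 month (log2 fold change 1.961, adjusted p = 1.8e-05). In each of these the lowest 3-month kidney was above the highest 1-month kidney, and replicate 3 held the highest level. Smaller rises were called for Slco1a6 (1.71, adjusted p = 0.00017), Slc22a2, the cation carrier OCT2 (0.98, adjusted p = 0.0075), Slc22a12, the urate exchanger (0.99, adjusted p = 0.015), Slc22a8, the anion carrier OAT3 (0.72, adjusted p = 0.019), and Slc22a18 (0.69, adjusted p = 0.0065), besides Abcc3 above. Abcc2, an apical exporter of conjugates (-1.44, adjusted p = 0.0089), and Slco4c1 (-1.74, adjusted p = 0.0020) fell. Slc22a13 lies over Slc22a14 on the same strand, so their reads may be mixed. Among these carriers, 9 rises and 4 falls were called without 3-month replicate 3, against 8 rises and no fall with that replicate as the lone 3-month library. Slc22a12 and Slc22a8 lost their calls without each of 1-month replicates 2 and 3 in turn (adjusted p 0.052 to 0.068). Abcc2 lost its call without each of 3-month replicates 1 and 2 in turn (adjusted p 0.051 to 0.053).

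Outside the lists, Slc22a26, of the same carrier family, had 30.3, 21.1 and 64.8 CPM in the 3-month kidneys, against 0, 0 and 0.0640 CPM in the 1-month kidneys (log2 fold change 6.08 ± 0.58 (SE), limma adjusted p = 8.3e-06). Pooled over libraries it had 1295 reads at 3 months and 1 read at 1 month, a ratio of rates of 1566 (95% counting interval 281 to 61913). Sec14l3, a lipid-binding protein of the Sec14 family, had 15.2, 9.61 and 45.8 CPM in the 3-month kidneys, against 0, 0 and 0 CPM in the 1-month kidneys, and its 820 reads against none put it at least 85.7-fold higher at 3 months, taking 3 reads per library as the floor. Reads of both genes came from all 3 of the 3-month libraries. C8a, a chain of the complement membrane attack complex, was at 39.3, 52.8 and 67.9 CPM in the 3-month kidneys, against 0.937, 1.53 and 1.28 CPM in the 1-month kidneys (log2 fold change 4.92 ± 0.26 (SE), limma adjusted p = 5.2e-09). Slc17a2, of the sodium phosphate carrier family, was at 30.2, 28.1 and 32.4 CPM at 3 months against 1.47, 1.301 and 0.895 CPM at 1 month (log2 fold change 4.17 ± 0.26 (SE), limma adjusted p = 6.1e-08). Ceacam2, an adhesion molecule (log2 fold change 4.62 ± 0.39 (SE), limma adjusted p = 1.9e-06), and Rnf24, a ring finger protein (log2 fold change 4.27 ± 0.44 (SE), limma adjusted p = 1.8e-05), rose likewise, and none of these genes overlapped between the ages. Ceacam2 shares 57.1% of its words with Ceacam1 and Rnf24 overlaps Pank2, which leaves their counts uncertain. These 6 genes kept their calls whichever library was left out. At 6 months all 3 kidneys were above all 1-month kidneys in each of them, with 32.8, 75.5 and 35.0 CPM for Slc22a26 and 56.8, 79.9 and 67.6 CPM for C8a.

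**Figure D2:**
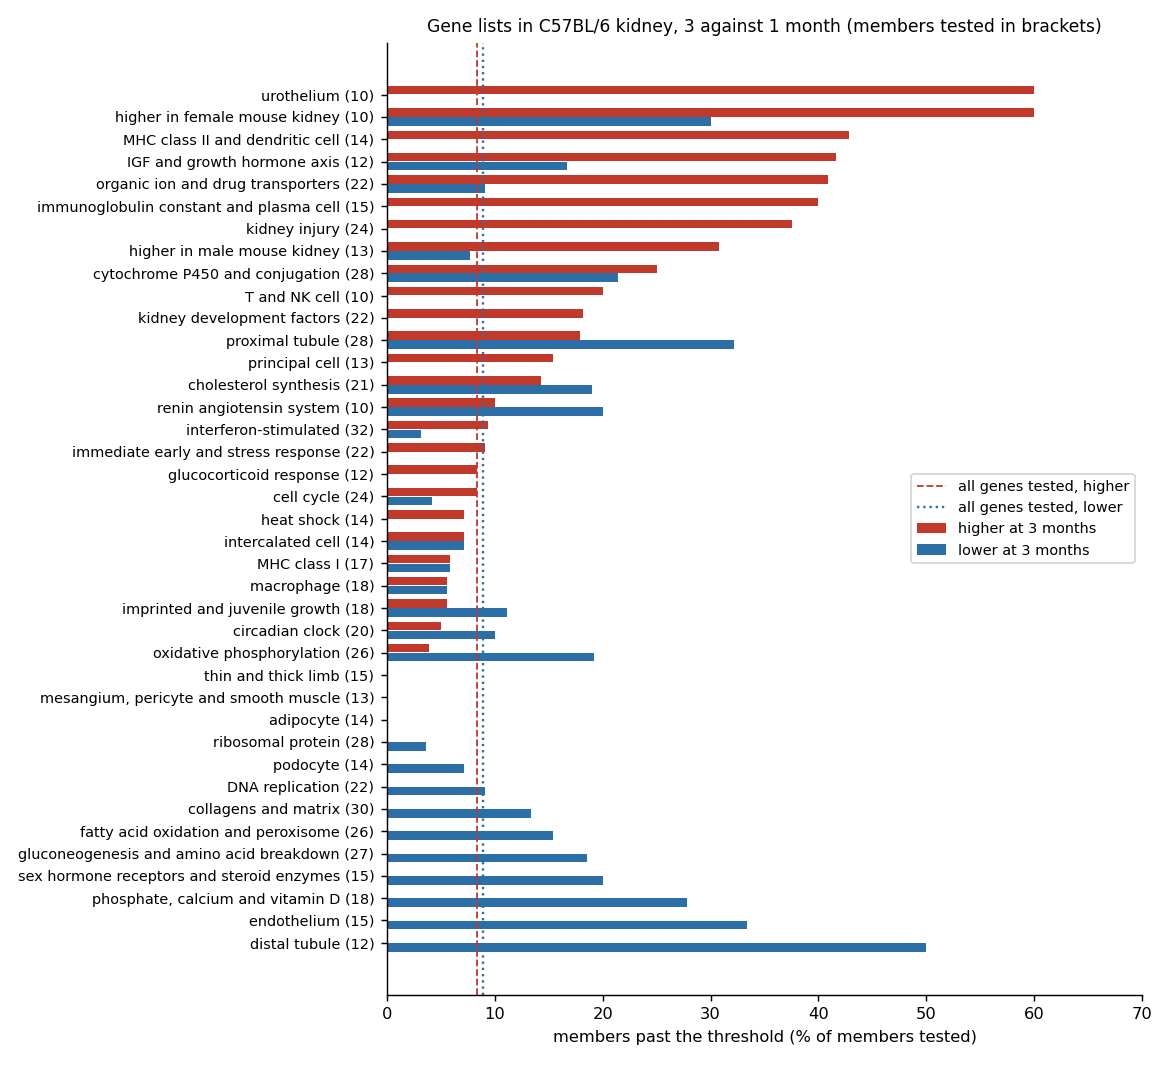
Share of the tested members of each gene list that were called higher (red) or lower (blue) at 3 than at 1 month, in percent, for lists with at least 10 tested members; the dashed and dotted lines give the shares over all 14373 genes, 8.36% and 8.86%. The lists of female-biased genes, urothelium, MHC class II, organic ion carriers and the growth hormone axis reach furthest on the red side, and the distal tubule, endothelium and proximal tubule lists on the blue side.

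Xenobiotic enzymes moved in both directions. Of 28 tested cytochromes P450 and conjugating enzymes 7 rose and 6 fell (median -0.10). Besides Cyp2a4, Gstm1, a glutathione transferase, rose, with 1165, 1060 and 779.8 CPM in the 3-month kidneys, against 374, 344 and 307 CPM in the 1-month kidneys (log2 fold change 1.53 ± 0.16 (SE), limma adjusted p = 1.6e-05). Cyp51, the sterol demethylase of cholesterol synthesis, had 253, 229.6 and 389 CPM at 3 months against 84.2, 128 and 122 CPM at 1 month (log2 fold change 1.37, adjusted p = 0.0010). Gstp1 (0.70, adjusted p = 0.0014), Cyp4a31 (0.79, adjusted p = 0.015), Cyp2d12 (1.44, adjusted p = 0.048) and Fmo5 completed the rises. Cyp2d26 fell to 146, 152 and 174 CPM in the 3-month kidneys, against 542, 396 and 438 CPM in the 1-month kidneys (log2 fold change -1.53 ± 0.20 (SE), limma adjusted p = 0.00015), and Cyp4a14, Cyp4a12b (-1.14, adjusted p = 0.033), Cyp2j5, an epoxygenase of arachidonic acid (-0.95, adjusted p = 0.021), Fmo2 (-1.47, adjusted p = 0.0019) and Ugt1a6a, a glucuronosyltransferase (-1.73, adjusted p = 0.037), fell too. Ugt1a10, of the same gene cluster, had 1.13, 0.475 and 1.41 CPM in the 3-month kidneys, against 39.0, 38.6 and 18.2 CPM in the 1-month kidneys (log2 fold change -4.41 ± 0.48 (SE), limma adjusted p = 2.6e-05); its transcript shares the cluster's exons with other Ugt1a genes on the same strand, so reads may be split among them. In this list, 7 rises and 8 falls were called without 3-month replicate 3, against 4 rises and 1 fall with that replicate as the lone 3-month library. Cyp4a31 lost its call without each of 1-month replicates 2 and 3 in turn (adjusted p 0.060 to 0.071). Cyp2j5 lost its call without each of 3-month replicates 1 and 2 and 1-month replicates 2 and 3 in turn (adjusted p 0.069 to 0.12). Cyp2d12 lost its call in every fit that left out 1 library except that without 3-month replicate 1 (adjusted p 0.081 to 0.20). Cyp4a12b and Ugt1a6a lost their calls in every fit that left out 1 library except that without 3-month replicate 3 (adjusted p 0.055 to 0.20).

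Growth hormone signalling genes were among those that rose. Ghr, the growth hormone receptor, had 497, 457 and 903 CPM in the 3-month kidneys, against 177, 220.5 and 202 CPM in the 1-month kidneys (log2 fold change 1.56 ± 0.26 (SE), limma adjusted p = 0.0013). Socs2, an inhibitor that growth hormone itself induces, had 83.7, 58.5 and 65.5 CPM in the 3-month kidneys, against 11.2, 11.1 and 14.1 CPM in the 1-month kidneys (log2 fold change 2.46 ± 0.26 (SE), limma adjusted p = 2.4e-05). Igfals, the acid-labile subunit that carries IGF in blood and is a textbook target of growth hormone in liver, had 47.5, 40.7 and 80.0 CPM in the 3-month kidneys, against 9.24, 10.9 and 10.2 CPM in the 1-month kidneys (log2 fold change 2.36 ± 0.27 (SE), limma adjusted p = 3.8e-05). For all 3 the ages did not overlap and the call held whichever library was left out. The list of 12 tested genes of this axis held 5 rises and 2 falls (median -0.23): Igfbp2 and Igfbp7, binding proteins of IGF, rose (1.88, adjusted p = 0.031, and 0.62, adjusted p = 0.039), and Igf1r, the receptor, and Igfbp1 fell (-0.87, adjusted p = 0.045, and -2.10, adjusted p = 0.029). The Igfbp1 values overlapped between the ages (7.26, 3.68 and 17.6 CPM at 3 months against 70.5, 41.9 and 14.8 CPM at 1 month). In the axis list, 5 rises and 2 falls were called without 3-month replicate 3, against 3 rises and no fall with that replicate as the lone 3-month library. Igfbp2 and Igfbp7 lost their calls without each of 3-month replicates 1 and 2 and 1-month replicates 2 and 3 in turn (adjusted p 0.080 to 0.16). Igfbp1 lost its call without each of 3-month replicates 1 and 2 and 1-month replicates 1 and 2 in turn (adjusted p 0.093 to 0.14). Igf1r lost its call in every fit that left out 1 library except that without 3-month replicate 3 (adjusted p 0.089 to 0.16).

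The largest fall among the called genes was that of Serpina6, corticosteroid-binding globulin, the carrier of glucocorticoids in blood (chr12:103646630-103657212, minus strand), at 0.251, 0.831 and 1.48 CPM in the 3-month kidneys, against 353, 194 and 152 CPM in the 1-month kidneys (log2 fold change -7.44 ± 0.43 (SE), limma adjusted p = 1.9e-08). It was high in every 1-month kidney and at or under 1.48 CPM in the 3-month kidneys, and it was at 0.752, 0.821 and 0.102 CPM at 6 months. Rdh19, a retinol dehydrogenase, fell to 0.251, 0.237 and 0.667 CPM in the 3-month kidneys, against 9.10, 12.01 and 6.20 CPM in the 1-month kidneys (log2 fold change -3.43 ± 0.39 (SE), limma adjusted p = 4.1e-05). Bbox1, the last enzyme of carnitine synthesis, was at 0.751, 0.949 and 2.07 CPM at 3 months against 12.1, 11.1 and 7.04 CPM at 1 month (log2 fold change -2.62, adjusted p = 0.0036). Xpnpep2, a membrane aminopeptidase that cleaves peptides such as bradykinin, was at 4.88, 5.58 and 9.93 CPM at 3 months against 39.8, 33.3 and 32.6 CPM at 1 month (-2.35, adjusted p = 3.4e-05). None of these overlapped between the ages. Clic6, an intracellular chloride channel protein, was at 2.38, 1.305 and 2.59 CPM at 3 months against 16.5, 13.3 and 13.4 CPM at 1 month (-2.56, adjusted p = 8.1e-05), and Nynrin at 0.251, 0.356 and 2.30 CPM at 3 months against 8.03, 8.41 and 6.14 CPM at 1 month (-2.71, adjusted p = 0.0034), again without overlap. Abca13, a large ABC transporter, had 20.2, 23.4 and 115 CPM in the 3-month kidneys, against 248, 251 and 189 CPM in the 1-month kidneys (-2.57, adjusted p = 0.0043), and there replicate 3 lay between the other 3-month kidneys and the 1-month kidneys.

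Of 18 tested genes of vitamin D, calcium and phosphate handling 5 fell and none rose (median -0.62). Cyp27b1, the enzyme that makes active vitamin D (chr10:127048250-127053006, plus strand, start-site window shown above), had 0.501, 0.831 and 1.33 CPM in the 3-month kidneys, against 14.3, 9.03 and 6.65 CPM in the 1-month kidneys (log2 fold change -2.90 ± 0.41 (SE), limma adjusted p = 0.00036). S100g, an intracellular calcium carrier that vitamin D induces, had 734, 666 and 706 CPM in the 3-month kidneys, against 1468, 1480 and 1801 CPM in the 1-month kidneys (log2 fold change -1.17 ± 0.35 (SE), limma adjusted p = 0.032). Trpv5, the apical calcium channel of the distal tubule, had 7.89, 9.61 and 16.0 CPM at 3 months against 18.2, 22.9 and 30.6 CPM at 1 month (log2 fold change -1.09, adjusted p = 0.014). These 3 were lower in every 3-month kidney than in any 1-month kidney. Slc8a1, the basolateral sodium calcium exchanger, fell (-1.85, adjusted p = 0.046), and so did Slc34a3, the phosphate carrier NaPi-IIc that is most abundant in young animals, with 22.3, 25.3 and 27.5 CPM in the 3-month kidneys, against 58.0, 59.8 and 70.3 CPM in the 1-month kidneys (-1.31, adjusted p = 0.018). Slc34a3 levels did not overlap between the ages, while replicate 3 was within the 1-month range for Slc8a1 (3.63, 4.75 and 21.6 CPM at 3 months against 19.5, 27.1 and 40.1 CPM at 1 month). Slc34a1, the main adult phosphate carrier, was at 1803, 1879 and 3254 CPM at 3 months against 3348, 3406 and 3190 CPM at 1 month and did not pass the test (-0.57, adjusted p = 0.26), nor did Kl, the co-receptor of FGF23, or Cyp24a1, which breaks vitamin D down (-0.66, adjusted p = 0.18, and -1.13, adjusted p = 0.36). S100g overlaps Ctps2, which leaves its count uncertain. In this list, no rise and 7 falls were called without 3-month replicate 3, against no rise and 1 fall with that replicate as the lone 3-month library. Trpv5 lost its call without each of 3-month replicates 1 and 2 and 1-month replicate 3 in turn (adjusted p 0.058 to 0.081). Slc34a3 lost its call without each of 3-month replicates 1 and 2 and 1-month replicates 2 and 3 in turn (adjusted p 0.052 to 0.075). S100g and Slc8a1 lost their calls in every fit that left out 1 library except that without 3-month replicate 3 (adjusted p 0.062 to 0.21).

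Proximal tubule markers moved in both directions. Of 28 tested, 5 rose (the organic anion carriers Slc22a8 and Slc22a12, and Ggt1, Atp11a and Kap) and 9 fell, with a median of -0.34. Slc5a12, a sodium-coupled lactate carrier, fell to 33.4, 39.6 and 99.8 CPM in the 3-month kidneys, against 351, 428 and 414 CPM in the 1-month kidneys (log2 fold change -2.94 ± 0.49 (SE), limma adjusted p = 0.0013). Slc6a19, the carrier of neutral amino acids, fell to 84.4, 89.1 and 220.0 CPM in the 3-month kidneys, against 709, 594 and 489 CPM in the 1-month kidneys (log2 fold change -2.31 ± 0.48 (SE), limma adjusted p = 0.0054). Slc2a2, the basolateral glucose carrier, was at 63.5, 74.3 and 118 CPM at 3 months against 217, 229 and 237 CPM at 1 month (log2 fold change -1.46, adjusted p = 0.0040). In these 3 genes replicate 3 was the highest 3-month kidney yet below every 1-month kidney. Slc5a2, the glucose carrier SGLT2 (-1.78, adjusted p = 0.010), Slc4a4, the bicarbonate carrier (-1.89, adjusted p = 0.0083), Slc7a7 (-1.34, adjusted p = 0.041) and Slc7a8 (-1.42, adjusted p = 0.010), amino acid exchangers, Gatm, the first enzyme of creatine synthesis (-1.64, adjusted p = 0.0080), and Slc34a3 made up the rest of the falls. Atp11a, a lipid flippase, rose, with 429.9, 394 and 475 CPM at 3 months against 206, 191 and 153 CPM at 1 month (1.25, adjusted p = 0.0014), and Ggt1, gamma-glutamyltransferase, had a log2 fold change of 0.61, adjusted p = 0.047. The summed level of the list, which Kap leads, was 31670, 32760 and 41110 CPM in the 3-month kidneys, against 27250, 25930 and 22710 CPM in the 1-month kidneys. Without Kap the other 27 summed to 11020, 10870 and 19290 CPM in the 3-month kidneys, against 17140, 17140 and 15160 CPM in the 1-month kidneys, so that 3-month replicates 1 and 2 lay below and replicate 3 above every 1-month kidney. Among these markers, 4 rises and 13 falls were called without 3-month replicate 3, against 2 rises and no fall with that replicate as the lone 3-month library. Slc5a2 and Slc4a4 lost their calls without 3-month replicate 1 (adjusted p = 0.051). Slc22a8 and Slc22a12 lost their calls without each of 1-month replicates 2 and 3 in turn (adjusted p 0.052 to 0.068). Kap lost its call without each of 3-month replicate 2 and 1-month replicates 2 and 3 in turn (adjusted p 0.053 to 0.067). Slc34a3 lost its call without each of 3-month replicates 1 and 2 and 1-month replicates 2 and 3 in turn (adjusted p 0.052 to 0.075). Slc7a7 lost its call in every fit that left out 1 library except that without 3-month replicate 3 (adjusted p 0.080 to 0.19). Ggt1 lost its call in every fit that left out 1 library except that without 3-month replicate 2 (adjusted p 0.086 to 0.14). In bulk tissue, fewer cells of a type and less RNA per cell cannot be told apart.

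Of 10 tested genes of the renin angiotensin system 1 rose and 2 fell. Enpep, an aminopeptidase that acts on angiotensin II, had 51.7, 57.4 and 84.6 CPM in the 3-month kidneys, against 157, 184 and 167 CPM in the 1-month kidneys (log2 fold change -1.41 ± 0.20 (SE), limma adjusted p = 0.00033). Nr1h3, a sterol receptor that acts on renin transcription in mice, had 49.5, 44.6 and 54.9 CPM at 3 months against 28.1, 30.4 and 31.5 CPM at 1 month (log2 fold change 0.71, adjusted p = 0.0016). The ages did not overlap in Enpep or Nr1h3. Ren1, renin, was at 61.1, 47.6 and 45.7 CPM at 3 months against 47.9, 32.3 and 41.5 CPM at 1 month and did not pass the test (adjusted p = 0.57), nor did Agt, its substrate (adjusted p = 0.12). The Enpep and Nr1h3 calls held whichever library was left out.

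The called genes of energy metabolism were lower at 3 months except Cox5b, and in all of the 14 that fell except Prodh2 replicate 3 was the highest 3-month kidney. Of 27 tested genes of gluconeogenesis and amino acid breakdown none rose and 5 fell (median -0.45). Of 26 genes of fatty acid oxidation and peroxisomes none rose and 4 fell (-0.07). Of 26 genes of oxidative phosphorylation 1 rose and 5 fell (-0.07). Over all genes 8.86% were called lower by limma and 6.86% by edgeR. By edgeR the falls in these lists numbered 4, 2 and 3, and Acadvl, Ppara and Ndufa9 were not called. G6pc, the last enzyme of glucose release, had 87.4, 85.9 and 192 CPM in the 3-month kidneys, against 393, 282 and 246 CPM in the 1-month kidneys (log2 fold change -1.41 ± 0.28 (SE), limma adjusted p = 0.0043). Ppargc1a, a coactivator of mitochondrial genes, had 30.4, 41.3 and 59.6 CPM in the 3-month kidneys, against 104, 99.99 and 98.8 CPM in the 1-month kidneys (log2 fold change -1.25 ± 0.23 (SE), limma adjusted p = 0.0024). Ndufs1, a subunit of complex I, had 93.6, 98.2 and 175 CPM at 3 months against 204, 230.0 and 229 CPM at 1 month (log2 fold change -0.91, adjusted p = 0.0052). Acadvl, which starts the oxidation of very long fatty acids, shows the pattern of replicate 3: it was at 22.6, 25.4 and 94.5 CPM in the 3-month kidneys, against 92.6, 119 and 92.0 CPM in the 1-month kidneys (-1.39, adjusted p = 0.021), with replicate 3 inside the range of the 1-month kidneys. Ppara, the receptor that drives fatty acid oxidation, was at 4.51, 5.34 and 19.9 CPM at 3 months against 28.4, 39.2 and 22.96 CPM at 1 month (-1.83, adjusted p = 0.029). The other falls were Pcx (-0.63, adjusted p = 0.035), Prodh2 (-0.77, adjusted p = 0.024), Agxt2 (-0.67, adjusted p = 0.020) and Glud1 (-0.56, adjusted p = 0.048) in the first list, Hadhb (-0.89, adjusted p = 0.016) and Acaa2 (-0.85, adjusted p = 0.0094) in the second and Uqcrc2 (-1.02, adjusted p = 0.011), Ndufa9 (-0.44, adjusted p = 0.028) and Sdha (-0.73, adjusted p = 0.036) in the third, where Cox5b rose (0.55, adjusted p = 0.032). Leaving out 3-month replicate 3 gave 0 higher and 15 lower (1 and 0) for gluconeogenesis, 0 higher and 9 lower (0 and 0) for fatty acid oxidation and 2 higher and 9 lower (0 and 0) for oxidative phosphorylation, with the counts for replicate 3 alone in brackets. Acaa2 and Uqcrc2 lost their calls without each of 3-month replicates 1 and 2 in turn (adjusted p 0.052 to 0.068). Acadvl, Hadhb and Ndufa9 lost their calls without each of 3-month replicates 1 and 2 and 1-month replicates 2 and 3 in turn (adjusted p 0.051 to 0.14). Pcx, Prodh2 and Agxt2 lost their calls without each of 3-month replicates 1 and 2 and 1-month replicates 1 and 2 in turn (adjusted p 0.053 to 0.15). Ppara, Glud1, Sdha and Cox5b lost their calls in every fit that left out 1 library except that without 3-month replicate 3 (adjusted p 0.054 to 0.21).

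Cholesterol synthesis went both ways, with 3 of 21 higher and 4 lower (median -0.24). Among the rises were Cyp51, given above, and Sqle, the squalene epoxidase (49.0, 48.5 and 61.8 CPM at 3 months against 22.8, 29.8 and 38.4 CPM at 1 month; 0.82, adjusted p = 0.031). Idi1, an isomerase of the pathway, fell, with 0.376, 0.356 and 1.93 CPM at 3 months against 2.41, 2.29 and 3.65 CPM at 1 month (-1.40, adjusted p = 0.027), and so did Stard4, a cholesterol transfer protein (42.6, 34.3 and 82.5 CPM at 3 months against 86.6, 92.8 and 104 CPM at 1 month; -0.92, adjusted p = 0.029). In this pathway, 2 rises and 4 falls were called without 3-month replicate 3, against 1 rise and no fall with that replicate as the lone 3-month library. edgeR called the 3 rises and none of the 4 falls. Idi1 and Stard4 lost their calls in every fit that left out 1 library except that without 3-month replicate 3 (adjusted p 0.054 to 0.14). Sqle lost its call in every fit that left out 1 library except that without 1-month replicate 3 (adjusted p 0.066 to 0.13).

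Along the rest of the nephron the distal convoluted tubule held falls alone: 6 of 12 tested markers were lower and none higher (median -0.84). Wnk1, the kinase that sets the activity of the thiazide-sensitive salt carrier, had 179, 242 and 310.5 CPM in the 3-month kidneys, against 426, 476 and 513 CPM in the 1-month kidneys (log2 fold change -0.98 ± 0.24 (SE), limma adjusted p = 0.014). Slc16a7, a monocarboxylate carrier, had 59.9, 63.6 and 148 CPM at 3 months against 183, 189 and 224 CPM at 1 month (-1.25, adjusted p = 0.0089). Klhl3, the adaptor that removes WNK kinases (-0.69, adjusted p = 0.041), Atp2b1, a calcium pump (-0.72, adjusted p = 0.0049), Trpv5 and Slc8a1 were the others. The salt carrier Slc12a3 itself was at 297, 373 and 689.8 CPM at 3 months against 792, 867 and 705 CPM at 1 month and did not pass the test (-0.89, adjusted p = 0.077). Thick limb genes were split by replicate. Umod, uromodulin, had 224, 298 and 1536 CPM in the 3-month kidneys, against 644, 618 and 443 CPM in the 1-month kidneys, and Egf had 257, 314 and 1045 CPM in the 3-month kidneys, against 914, 1000 and 825 CPM in the 1-month kidneys. In both, replicates 1 and 2 were below and replicate 3 above every 1-month kidney. No member of the 15 thin and thick limb markers was called by limma or edgeR, with 5 at an unadjusted p under 0.05. Of 13 principal cell markers 2 rose, the water channel Aqp4 with 227, 313 and 134 CPM in the 3-month kidneys, against 47.1, 24.9 and 45.4 CPM in the 1-month kidneys (log2 fold change 2.48 ± 0.43 (SE), limma adjusted p = 0.0019) and Hsd11b2, which inactivates glucocorticoids (0.49, adjusted p = 0.038). Of 14 intercalated cell markers Aqp6 rose (0.62, adjusted p = 0.024) and Atp6v0a4, a proton pump subunit, fell (74.3, 91.7 and 193 CPM at 3 months against 336, 335 and 327 CPM at 1 month; -1.60, adjusted p = 0.0039). Omitting 3-month replicate 3 gave 0 higher and 7 lower (0 and 0) for the distal tubule, 5 higher and 1 lower (0 and 0) for principal cells and 1 higher and 3 lower (0 and 0) for intercalated cells (replicate 3 alone in brackets). In the thin and thick limb list, 2 rises and 4 falls were called without 3-month replicate 3, against no rise and no fall with that replicate as the lone 3-month library. Slc16a7 lost its call without 3-month replicate 1 (adjusted p = 0.054). Wnk1 lost its call without each of 3-month replicate 1 and 1-month replicate 3 in turn (adjusted p 0.053 to 0.080). Trpv5 lost its call without each of 3-month replicates 1 and 2 and 1-month replicate 3 in turn (adjusted p 0.058 to 0.081). Klhl3, Slc8a1, Hsd11b2 and Aqp6 lost their calls in every fit that left out 1 library except that without 3-month replicate 3 (adjusted p 0.050 to 0.21).

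Called genes of vessels and matrix were lower at 3 months. Of 15 endothelial markers 5 fell and none rose (median -0.38). Pecam1, the junction protein CD31, had 74.0, 78.8 and 54.8 CPM in the 3-month kidneys, against 117, 101 and 129 CPM in the 1-month kidneys (log2 fold change -0.75 ± 0.14 (SE), limma adjusted p = 0.0031). The growth factor receptors Kdr (-0.71, adjusted p = 0.012), Flt1 (-0.65, adjusted p = 0.022), Tek (-0.69, adjusted p = 0.021) and Tie1 (-0.73, adjusted p = 0.016) fell. Of 14 podocyte markers Podxl, podocalyxin, fell (124, 140.5 and 153 CPM at 3 months against 301, 246 and 307 CPM at 1 month; -1.03, adjusted p = 0.00020), while Nphs1 was at 11.9, 14.9 and 10.4 CPM at 3 months against 16.6, 14 and 9.15 CPM at 1 month (-0.07, adjusted p = 0.91). Podxl is made by endothelium as well as podocytes. Of 30 collagen and matrix genes 4 fell and none rose (median -0.31). Col4a2, a basement membrane chain, had 191, 168 and 155 CPM in the 3-month kidneys, against 344, 335 and 418 CPM in the 1-month kidneys (log2 fold change -1.09 ± 0.23 (SE), limma adjusted p = 0.0065). Col4a1, whose gene overlaps Col4a2 on the other strand (-0.83, adjusted p = 0.026), Eln, elastin (-1.37, adjusted p = 0.043), and Lox, which cross-links it (-1.63, adjusted p = 0.020), fell too. Col8a1, a short-chain collagen outside the list, was at 1.13, 1.07 and 2.96 CPM at 3 months against 11.1, 12.6 and 10.6 CPM at 1 month (-2.52, adjusted p = 0.00060) and kept its call in all fits with 1 library left out. Among fibrillar collagens Col1a1 did not pass the test (71.3, 57.8 and 49.0 CPM at 3 months against 76.7, 111 and 121 CPM at 1 month; -0.78, adjusted p = 0.39), nor did Col3a1 (-0.97, adjusted p = 0.28). Summed endothelial levels were 1524, 1387 and 899 CPM in the 3-month kidneys, against 1653, 1256 and 1775 CPM in the 1-month kidneys, and summed matrix levels 2878, 2669 and 2106 CPM in the 3-month kidneys, against 2968, 3466 and 3999 CPM in the 1-month kidneys, with replicate 3 the lowest library for both. Counts without 3-month replicate 3 were 2 higher and 4 lower (0 and 3) for endothelium, 0 higher and 2 lower (0 and 1) for podocytes and 1 higher and 1 lower (0 and 1) for matrix (replicate 3 alone in brackets). Kdr lost its call without 1-month replicate 3 (adjusted p = 0.057). Tie1 lost its call without each of 1-month replicates 1 and 3 in turn (adjusted p 0.058 to 0.063). Flt1 lost its call without each of 3-month replicate 2 and 1-month replicates 1 and 3 in turn (adjusted p 0.057 to 0.10). Tek lost its call without each of 3-month replicates 2 and 3 and 1-month replicate 3 in turn (adjusted p 0.054 to 0.10). Lox lost its call without each of 3-month replicate 3 and 1-month replicates 2 and 3 in turn (adjusted p 0.054 to 0.066). Col4a1 lost its call in every fit that left out 1 library except that without 3-month replicate 1 (adjusted p 0.050 to 0.10). Eln lost its call whichever of the 6 libraries was left out (adjusted p 0.062 to 0.11).

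Genes of dividing cells held calls in both directions. Of 24 tested cell cycle genes 2 rose and 1 fell (median -0.38), with 7 at an unadjusted p under 0.05. Of 22 DNA replication genes 2 fell (median -0.12). Over all genes 17.2% were called in either direction. Mki67, the Ki-67 antigen, was at 9.27, 7.36 and 4.15 CPM at 3 months against 11.5, 9.10 and 12.5 CPM at 1 month (-0.69, adjusted p = 0.30) and Top2a, a topoisomerase, at 3.26, 3.56 and 2.96 CPM at 3 months against 4.55, 9.41 and 7.42 CPM at 1 month (-0.97, adjusted p = 0.11). Neither passed the test. Kif23 and Ube2c rose (1.40, adjusted p = 0.021, and 0.98, adjusted p = 0.021) and Cenpe fell (-1.14, adjusted p = 0.037), as did Pola1, a subunit of DNA polymerase alpha (-0.58, adjusted p = 0.038). Kif23 was at 22.04, 21.5 and 8.15 CPM at 3 months against 6.02, 5.43 and 5.50 CPM at 1 month, with replicate 3 the lowest of the 3-month kidneys. Among 18 imprinted and juvenile growth genes Zim1, a zinc finger gene, fell, with 4.01, 4.15 and 2.22 CPM in the 3-month kidneys, against 13.4, 13.5 and 10.7 CPM in the 1-month kidneys (log2 fold change -1.75 ± 0.33 (SE), limma adjusted p = 0.0028), and so did Grb10, an adaptor that restrains insulin and IGF signalling, with 22.9, 25.4 and 28.9 CPM at 3 months against 52.3, 44.9 and 51.2 CPM at 1 month (-0.93, adjusted p = 0.0026). Igf2, a fetal growth factor, was called higher at low levels (0.376, 0.831 and 4.67 CPM at 3 months against 0, 0 and 0.256 CPM at 1 month; 1.67, adjusted p = 0.042). Kidney development factors held 4 rises and no fall among 22 (median 0.62), which were Emx2 (0.90, adjusted p = 0.0060), Bmp4 (0.85, adjusted p = 0.0056), Pax8 (0.95, adjusted p = 0.033) and Wnt9b, the signal of the ureteric bud and collecting duct, with 59.2, 85.8 and 7.48 CPM in the 3-month kidneys, against 2.94, 2.75 and 4.73 CPM in the 1-month kidneys (3.15, adjusted p = 0.039). Without 3-month replicate 3 the calls were 2 higher and 1 lower (0 and 0) for cell cycle, 2 higher and 2 lower (0 and 0) for DNA replication and 0 higher and 3 lower (1 and 1) for imprinted and juvenile growth genes (replicate 3 alone in brackets). Among development factors, 8 rises and 2 falls were called without 3-month replicate 3, against no rise and no fall with that replicate as the lone 3-month library. Ube2c lost its call without each of 3-month replicate 1 and 1-month replicate 1 in turn (adjusted p 0.076 to 0.085). Kif23 and Pola1 lost their calls without each of 3-month replicates 1 and 2 and 1-month replicates 2 and 3 in turn (adjusted p 0.063 to 0.18). Igf2 lost its call in every fit that left out 1 library except that without 3-month replicate 1 (adjusted p 0.066 to 0.13). Pax8 and Wnt9b lost their calls in every fit that left out 1 library except that without 3-month replicate 3 (adjusted p 0.052 to 0.18). Cenpe lost its call whichever of the 6 libraries was left out (adjusted p 0.063 to 0.11).

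Antibody RNA rose. Igha, the constant region of IgA, was at 49.0, 114 and 84.5 CPM in the 3-month kidneys, against 1.47, 1.07 and 0.959 CPM in the 1-month kidneys (log2 fold change 5.57 ± 0.44 (SE), limma adjusted p = 8.5e-07). Igkc, the kappa light chain, was at 48.0, 115 and 72.5 CPM in the 3-month kidneys, against 5.09, 3.67 and 2.05 CPM in the 1-month kidneys (log2 fold change 4.25 ± 0.35 (SE), limma adjusted p = 1.4e-06). Jchain, which joins IgA and IgM into polymers, was at 14.2, 32.3 and 21.6 CPM at 3 months against 1.07, 2.14 and 0.640 CPM at 1 month (log2 fold change 3.71, adjusted p = 1e-05). The lowest 3-month kidney was far above the highest 1-month kidney in each, and the 6-month kidneys were higher again in Igha, at 212, 323 and 178 CPM. Of 15 tested members of the antibody and plasma cell list 6 rose and none fell (median 0.71), the others being Ighg2b (1.78, adjusted p = 0.020), Iglc1 (1.60, adjusted p = 0.032) and Xbp1, a plasma cell factor that kidney cells make too (0.71, adjusted p = 0.0038). Ighm, the IgM heavy chain, was at 21.8, 12.7 and 12 CPM at 3 months against 13.2, 14.5 and 10.6 CPM at 1 month and did not pass the test (0.23, adjusted p = 0.64), and none of 6 tested B cell markers was called by limma or edgeR, with none at an unadjusted p under 0.05. Ccl28, a chemokine that attracts IgA plasma cells to mucosa, was at 29.8, 22.8 and 29.0 CPM at 3 months against 2.01, 0.306 and 1.28 CPM at 1 month (4.17, adjusted p = 0.0049). In the antibody list, 5 rises and no fall were called without 3-month replicate 3, against 3 rises and no fall with that replicate as the lone 3-month library. Ighg2b lost its call without each of 3-month replicate 1 and 1-month replicates 1 and 2 in turn (adjusted p 0.054 to 0.11). Iglc1 lost its call in every fit that left out 1 library except that without 3-month replicate 2 (adjusted p 0.054 to 0.12). Whether these RNAs come from cells of the kidney or of adjoining tissue was not tested.

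Among genes of antigen presentation, those of MHC class II rose, while class I held 1 rise and 1 fall. Over all genes 8.36% were called higher and 8.86% lower. Of 14 tested MHC class II and dendritic cell genes 6 rose and none fell (median 0.71). H2-Ab1, a class II beta chain, was at 268, 154 and 151 CPM in the 3-month kidneys, against 85.9, 83.2 and 100.4 CPM in the 1-month kidneys (log2 fold change 1.04 ± 0.26 (SE), limma adjusted p = 0.015). H2-Eb1 (0.96, adjusted p = 0.015), H2-Aa (0.78, adjusted p = 0.030), H2-DMa (0.86, adjusted p = 0.016), Cd74, the invariant chain (0.75, adjusted p = 0.045), and Xcr1, a receptor of cross-presenting dendritic cells (1.08, adjusted p = 0.024), rose as well. Replicate 1 was the highest 3-month kidney for H2-Ab1, H2-Eb1, H2-DMa and Xcr1, and without it none of the 14 was called. Among 18 macrophage markers Csf1r, the receptor of the macrophage growth factor, rose, with 93.1, 63.1 and 87.0 CPM at 3 months against 46.9, 45.9 and 44.1 CPM at 1 month (0.80, adjusted p = 0.0030), and Adgre1, F4/80, fell, with 5.76, 3.44 and 4.89 CPM at 3 months against 7.496, 8.03 and 10.04 CPM at 1 month (-0.81, adjusted p = 0.014). T and NK cell markers held 2 rises among 10 tested, Cd3d (1.75, 1.78 and 1.26 CPM at 3 months against 0.535, 0.230 and 0.895 CPM at 1 month; 1.03, adjusted p = 0.027) and Ccl5 (1.17, adjusted p = 0.043). Of 17 class I genes H2-T23 rose (134, 97.1 and 104 CPM at 3 months against 66.1, 62.7 and 66.9 CPM at 1 month; 0.76, adjusted p = 0.0034) and H2-T24 fell (2.76, 2.37 and 3.78 CPM at 3 months against 7.36, 5.97 and 9.72 CPM at 1 month; -1.23, adjusted p = 0.00035). Interferon-stimulated genes were mixed, with 3 of 32 higher and 1 lower (median 0.08). Gbp3, a guanylate-binding protein, was at 87.9, 63.6 and 85.6 CPM in the 3-month kidneys, against 13.7, 18.7 and 23.4 CPM in the 1-month kidneys (log2 fold change 2.08 ± 0.23 (SE), limma adjusted p = 2.7e-05). Oas2 and Cxcl10 rose (1.73, adjusted p = 0.020, and 0.72, adjusted p = 0.035), and Rsad2, viperin, fell, with 43.5, 33.1 and 27.7 CPM at 3 months against 84.7, 65.9 and 87.8 CPM at 1 month (-1.20, adjusted p = 0.0029). With 3-month replicate 3 left out the counts were 7 higher and 0 lower (0 and 0) for class II, 6 higher and 1 lower (1 and 0) for class I and 6 higher and 2 lower (1 and 1) for the interferon list, and 1 higher and 1 lower (1 and 0) for macrophages and 3 higher and 0 lower (0 and 0) for T and NK cells (replicate 3 alone in brackets). H2-Ab1 and H2-Eb1 lost their calls without each of 3-month replicate 1 and 1-month replicate 2 in turn (adjusted p 0.054 to 0.089). H2-DMa lost its call without each of 3-month replicate 1 and 1-month replicate 1 in turn (adjusted p 0.061 to 0.091). Adgre1 lost its call without each of 3-month replicate 2 and 1-month replicate 3 in turn (adjusted p 0.067 to 0.076). Xcr1 lost its call without each of 3-month replicates 1 and 2 and 1-month replicates 1 and 3 in turn (adjusted p 0.073 to 0.10). Cd3d and Oas2 lost their calls without each of 3-month replicates 1 and 2 and 1-month replicates 1 and 2 in turn (adjusted p 0.061 to 0.13). H2-Aa, Cd74, Ccl5 and Cxcl10 lost their calls in every fit that left out 1 library except that without 3-month replicate 3 (adjusted p 0.055 to 0.22).

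Urothelial genes, which line the renal pelvis, were higher at 3 months and highest in replicates 1 and 2. Of 10 tested markers 6 rose and none fell (median 1.53). Krt5, the keratin of basal cells, was at 31.9, 24.6 and 14.96 CPM in the 3-month kidneys, against 2.14, 3.60 and 1.66 CPM in the 1-month kidneys (log2 fold change 3.02 ± 0.43 (SE), limma adjusted p = 0.00036). Upk3a, a uroplakin of the surface plaques, was at 54.1, 43.9 and 21.0 CPM at 3 months against 10.6, 14.3 and 9.66 CPM at 1 month (1.66, adjusted p = 0.024). The uroplakins Upk1a (1.75, adjusted p = 0.017), Upk1b (1.497, adjusted p = 0.038) and Upk2 (1.64, adjusted p = 0.030) and the basal cell factor Trp63 (1.303, adjusted p = 0.047) rose as well. The summed urothelial level was 430.4, 414 and 166 CPM in the 3-month kidneys, against 110.4, 124 and 94.9 CPM in the 1-month kidneys, so that replicates 1 and 2 stood well above replicate 3 and all 3 exceeded the 1-month kidneys. In this list, 9 rises and no fall were called without 3-month replicate 3, against no rise and no fall with that replicate as the lone 3-month library. Upk1a and Upk3a lost their calls without each of 3-month replicates 1 and 2 and 1-month replicates 1 and 3 in turn (adjusted p 0.057 to 0.12). Upk2, Upk1b and Trp63 lost their calls in every fit that left out 1 library except that without 3-month replicate 3 (adjusted p 0.052 to 0.18).

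Several genes of the inner medulla, of stress and of injury were also highest in replicates 1 and 2. Akr1b3, aldose reductase, which makes sorbitol in the salty inner medulla, was at 502, 407 and 31.8 CPM in the 3-month kidneys, against 36.7, 26.5 and 42.0 CPM in the 1-month kidneys. Aqp2, the vasopressin-regulated water channel, was at 722, 939 and 230.2 CPM in the 3-month kidneys, against 477, 232 and 303 CPM in the 1-month kidneys. Neither passed the test (adjusted p = 0.14 and 0.42), and replicate 3 lay within the 1-month range for Akr1b3 and just below it for Aqp2. Hspa1b, an inducible HSP70, was at 162, 107 and 10.96 CPM in the 3-month kidneys, against 16.7, 9.95 and 18.7 CPM in the 1-month kidneys (1.95, adjusted p = 0.12), and shares 68.1% of its words with Hspa1a. Of 14 heat shock genes Hsph1 rose (221, 293 and 85.9 CPM at 3 months against 49.7, 50.7 and 76.9 CPM at 1 month; 1.61, adjusted p = 0.040), and of 22 immediate early and stress genes Jund (0.84, adjusted p = 0.033) and Gadd45g (1.63, adjusted p = 0.042) rose. Over all genes 8.36% were called higher, near the shares of the heat shock and stress lists. Gadd45g was at 199, 100.1 and 40.1 CPM at 3 months against 24.9, 40.6 and 25.6 CPM at 1 month, with replicate 3 inside the 1-month range. Kidney injury genes held 9 rises and no fall among 24 (median 0.62). Havcr1, the injury marker KIM-1, rose at low levels (1.13, 0.949 and 2.52 CPM at 3 months against 0.134, 0.153 and 0.192 CPM at 1 month; 1.54, adjusted p = 0.032). Lcn2, the marker NGAL and the single call among 12 glucocorticoid-responsive genes, was at 19.4, 9.85 and 2.89 CPM in the 3-month kidneys, against 1.87, 1.61 and 0.959 CPM in the 1-month kidneys (log2 fold change 2.19 ± 0.57 (SE), limma adjusted p = 0.017). Krt20 (2.80, adjusted p = 0.013), Krt7 (0.86, adjusted p = 0.015), Krt8 (0.68, adjusted p = 0.016) and Krt19 (1.65, adjusted p = 0.020) are keratins that urothelium and collecting duct also make. Cp, ceruloplasmin, was at 93.8, 87.8 and 83.4 CPM at 3 months against 35.6, 37.0 and 37.9 CPM at 1 month (1.25, adjusted p = 0.0065), and Tnfrsf12a, the TWEAK receptor (1.39, adjusted p = 0.0051), and Ccl2, a monocyte chemokine (1.14, adjusted p = 0.038), were the other rises. Excluding 3-month replicate 3 gave 9 higher and 0 lower (0 and 0) for injury, 8 higher and 0 lower (0 and 0) for stress and 5 higher and 1 lower (0 and 0) for heat shock genes (replicate 3 alone in brackets). Krt7 lost its call without each of 3-month replicates 1 and 2 in turn (adjusted p 0.067 to 0.079). Lcn2 and Krt8 lost their calls without each of 3-month replicates 1 and 2 and 1-month replicate 3 in turn (adjusted p 0.064 to 0.099). Krt20 lost its call without each of 3-month replicate 2 and 1-month replicates 1 and 3 in turn (adjusted p 0.052 to 0.058). Jund and Krt19 lost their calls without each of 3-month replicates 1 and 2 and 1-month replicates 2 and 3 in turn (adjusted p 0.060 to 0.18). Hsph1, Gadd45g and Ccl2 lost their calls in every fit that left out 1 library except that without 3-month replicate 3 (adjusted p 0.059 to 0.22). Havcr1, which unlike Lcn2 was highest in replicate 3, lost its call whichever of the 6 libraries was left out (adjusted p 0.055 to 0.087). Neither Havcr1 nor Krt20 was called by edgeR. The part of pelvis and papilla in the other results was not tested.

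**Figure D3:**
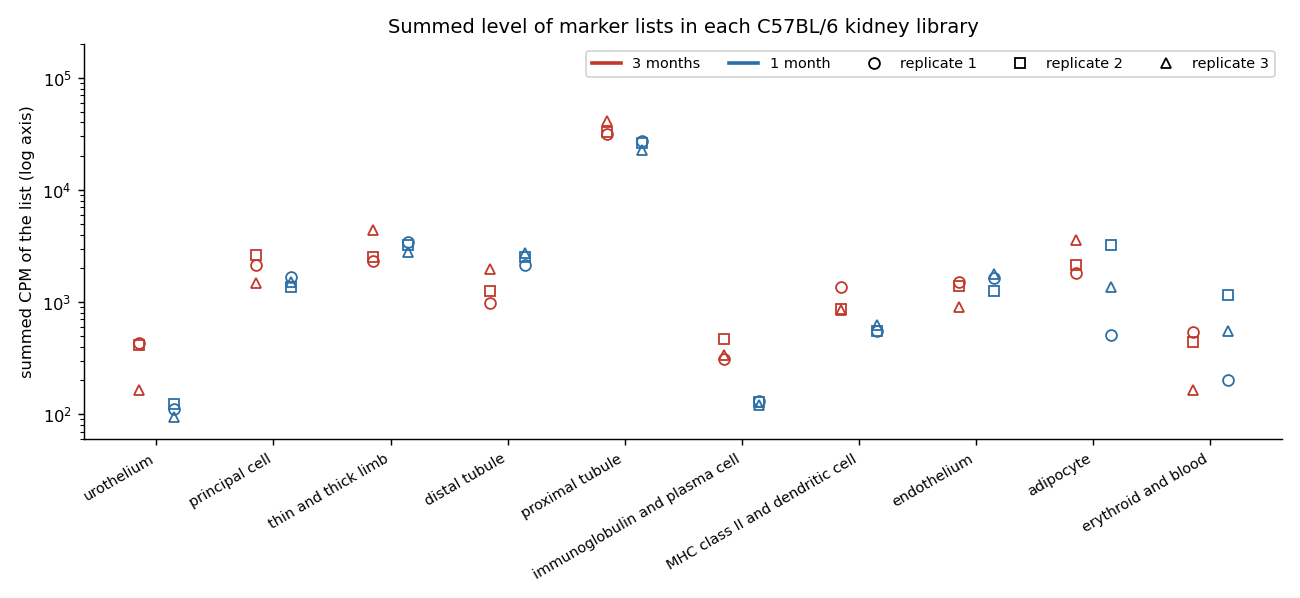
Summed CPM of the members of 10 marker lists (log axis) in each 3-month (red) and 1-month (blue) C57BL/6 kidney library, with a symbol for each replicate. Urothelium reached 430.4 and 413.5 CPM in 3-month replicates 1 and 2, against 94.9 to 124 CPM in the 1-month kidneys, while adipocyte genes spanned 505 to 3240 CPM among the 1-month kidneys alone; the proximal tubule sum includes Kap.

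Marker lists of other tissues held 1 call over all 6 libraries. Adipocyte genes summed to 1832, 2140 and 3582 CPM in the 3-month kidneys, against 505, 3240 and 1366 CPM in the 1-month kidneys, and none of 14 was called by limma or edgeR, with 1 at an unadjusted p under 0.05; Adipoq was at 43.2, 58.7 and 128 CPM at 3 months against 6.83, 146 and 47.6 CPM at 1 month, with replicates of each age far apart. Blood cell genes summed to 545, 438 and 163 CPM in the 3-month kidneys, against 204, 1160 and 553 CPM in the 1-month kidneys, and none of 8 was called by either tool or at an unadjusted p under 0.05. Adrenal genes were near the floor, with sums of 5.01, 4.03 and 4.297 CPM in the 3-month kidneys, against 4.28, 4.90 and 3.71 CPM in the 1-month kidneys, and Hsd3b1 at 0, 0.119 and 0.296 CPM at 3 months against 0.402, 0 and 0 CPM at 1 month. Liver genes summed to 40.6, 41.5 and 47.6 CPM in the 3-month kidneys, against 87.5, 70.8 and 69.4 CPM in the 1-month kidneys, with no member called by either tool and 1 at an unadjusted p under 0.05, Serpina1a. Of 3 muscle genes tested Myh1, a myosin heavy chain, was called higher on 59 reads against none, at least 6.17-fold. None of 13 mesangial and smooth muscle, 7 nerve, 2 neutrophil or 1 pancreatic gene was called by limma or edgeR; at an unadjusted p under 0.05 stood 1 of the first set and none of the others. Without 3-month replicate 3 limma called 2 mesangial and smooth muscle genes higher. Of 28 ribosomal protein genes Rps7 fell (-0.33, adjusted p = 0.047) and none rose, while the list's median was 0.23. Its direction turned with the fit: 7 were called higher and none lower without 3-month replicate 3, 2 higher and none lower by edgeR, and none with replicate 3 as the lone 3-month library. Rps7 lost its call whichever of the 6 libraries was left out (adjusted p 0.050 to 0.16). The part of these tissues in the results above was not tested.

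In genes of the daily clock replicate 3 lay apart from the other 3-month kidneys, as it did over all genes. The clock is a loop in which Arntl and Clock switch on Per, Cry, Nr1d and Dbp genes through the E-box CACGTG. The products of the Per, Cry and Nr1d genes act back against Arntl and Clock, so that levels in the loop rise and fall over the day. Of 20 clock genes 1 was called higher and 2 lower (median -0.21), with 5 at an unadjusted p under 0.05 and 3 called by edgeR. Cry1, a repressor, was at 6.64, 6.17 and 2.96 CPM in the 3-month kidneys, against 1.74, 2.37 and 1.60 CPM in the 1-month kidneys (log2 fold change 1.20 ± 0.29 (SE), limma adjusted p = 0.013). Clock was at 39.0, 38.7 and 38.3 CPM in the 3-month kidneys, against 53.5, 55.6 and 60.1 CPM in the 1-month kidneys (log2 fold change -0.54 ± 0.11 (SE), limma adjusted p = 0.0041), and Rora, an activator of Arntl, fell as well (-0.53, adjusted p = 0.032). The ages did not overlap in these 3. Dbp, an output factor, was at 4.51, 7.59 and 79.7 CPM in the 3-month kidneys, against 19.01, 28.0 and 19.6 CPM in the 1-month kidneys. Arntl was at 19.8, 11.9 and 2.89 CPM in the 3-month kidneys, against 11.9, 8.11 and 9.85 CPM in the 1-month kidneys. For Dbp replicate 3 was above and replicates 1 and 2 below every 1-month kidney, for Arntl replicate 3 was below every 1-month kidney, and neither gene passed the test (adjusted p = 0.64 and 0.89). Per1, a repressor, was at 33.2, 54.5 and 53.6 CPM at 3 months against 30.2, 57 and 55.5 CPM at 1 month (0.01, adjusted p = 1.0) and Nr1d1 at 19.7, 57.7 and 76.7 CPM at 3 months against 74.4, 58.1 and 47.5 CPM at 1 month (-0.41, adjusted p = 0.48). Replicate 3 was the highest 3-month kidney in 13 of the 20 genes and the lowest in 5, and above all 1-month kidneys in 14 and below all of them in 4. Replicates 1 and 2 were both below all 1-month kidneys in 9 genes and both above in 4. The same counts over all genes were not made, so these numbers do not show a trait particular to clock genes. Over all genes replicate 3 differed from replicates 1 and 2 by a chi-square per gene of 41.5 and 34.6, against 6.04 between those 2. Without replicate 3 the list held 1 rise and 7 falls, and with replicate 3 alone no call. Cry1 lost its call without each of 3-month replicates 1 and 2 and 1-month replicate 3 in turn (adjusted p 0.053 to 0.073). Rora lost its call in every fit that left out 1 library except that without 3-month replicate 3 (adjusted p 0.067 to 0.13).

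Brain libraries of the same 3 animals, by the numbers in the labels, put replicate 3 on the same side. In brain replicate 3 was the highest of the 3-month libraries in 9 of the 20 clock genes and the lowest in 4, and all 13 lay on that same side in kidney. Among them Bhlhe41, Ciart, Cry2, Dbp, Nr1d1, Per3, Rora and Usp2 were highest in both tissues and Arntl, Cry1, Nfil3 and Npas2 lowest in both. Dbp was at 41.3, 33.6 and 82.6 CPM in 3-month brains, against 40.5, 70.8 and 51.4 CPM in 1-month brains, and Nr1d1, a repressor of Arntl, at 101, 113 and 179 CPM in 3-month brains, against 112, 127 and 112 CPM in 1-month brains. No clock gene was called between the ages in brain by limma or edgeR, with 4 at an unadjusted p under 0.05; 0.497% of all genes were called there. In spleen 2 of 20 were called lower by limma and 1 by edgeR, among 6.80% of all genes. The labels used here give no time of day for the sampling, and the part of time of day in the comparison of ages was not tested.

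The start-site windows of the clock genes with the smallest p among those that hold the E-box are shown, with the E-box in capitals, at chr10:85185005-85185304 (minus strand) for Cry1, chr15:81802423-81802722 (plus strand) for Tef and chr6:145865371-145865670 (minus strand) for Bhlhe41 (RefSeq, GRCm38.p6).
Cry1: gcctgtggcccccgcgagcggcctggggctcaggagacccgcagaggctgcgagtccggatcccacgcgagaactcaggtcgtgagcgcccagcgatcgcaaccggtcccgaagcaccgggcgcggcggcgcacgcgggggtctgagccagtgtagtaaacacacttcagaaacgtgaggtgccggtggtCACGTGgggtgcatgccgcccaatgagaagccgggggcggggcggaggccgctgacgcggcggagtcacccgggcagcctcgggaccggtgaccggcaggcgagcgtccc
Tef: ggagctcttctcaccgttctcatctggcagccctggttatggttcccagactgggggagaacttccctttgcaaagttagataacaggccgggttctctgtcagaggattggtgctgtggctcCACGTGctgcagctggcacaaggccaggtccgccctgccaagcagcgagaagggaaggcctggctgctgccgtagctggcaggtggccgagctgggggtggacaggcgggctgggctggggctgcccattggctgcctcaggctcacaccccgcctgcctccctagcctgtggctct
Bhlhe41: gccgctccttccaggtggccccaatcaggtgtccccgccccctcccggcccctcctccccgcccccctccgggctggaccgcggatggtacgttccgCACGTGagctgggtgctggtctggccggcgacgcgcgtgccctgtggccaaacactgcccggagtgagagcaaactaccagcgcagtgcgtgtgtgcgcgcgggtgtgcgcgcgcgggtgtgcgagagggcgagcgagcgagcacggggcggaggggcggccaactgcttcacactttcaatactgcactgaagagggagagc
The E-box lay 60, 127 and 153 bases before the start in Cry1, Tef and Bhlhe41. Of 17 clock genes with a RefSeq window, 5 held CACGTG on either strand in any of their windows, which is 29.4%. Over all genes with a window the share was 8.09%, and over all windows of this length it was 7.15%. In kidney Tef, an output factor related to Dbp, was at 82.8, 114 and 237 CPM at 3 months against 159, 194 and 168 CPM at 1 month, and Bhlhe41, a repressor, at 1.13, 2.49 and 3.93 CPM at 3 months against 0.937, 2.37 and 1.92 CPM at 1 month. Replicate 3 was the highest 3-month kidney for both and, in contrast, the lowest for Cry1.

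**Figure D4:**
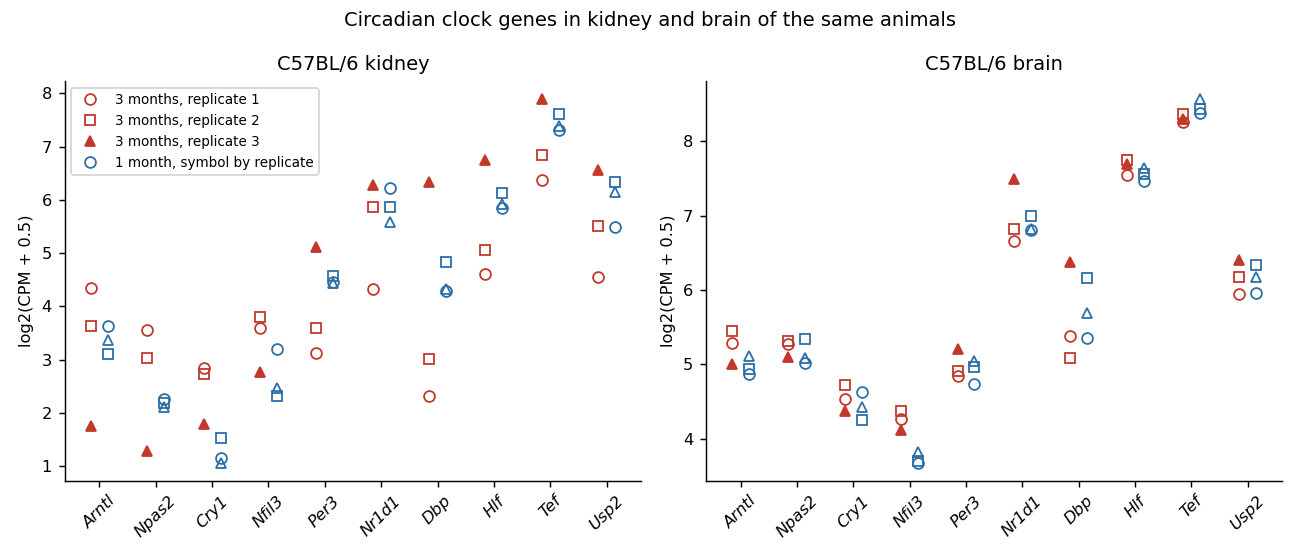
Levels of 10 clock genes, as log2(CPM + 0.5), in 3-month (red) and 1-month (blue) C57BL/6 kidneys (left) and brains (right); symbols mark the replicates, and 3-month replicate 3 is filled. In kidney, 3-month replicate 3 lies above the other points of Dbp, at 79.7 CPM, and below those of Arntl, at 2.89 CPM.

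Levels of the 6-month C57BL/6 kidneys are set beside those of the younger ones. The 6-month kidneys were deposited under another run of sample numbers than the 3-month and 1-month C57BL/6 kidneys. Age and submission therefore cannot be told apart for any 6-month level given here or above. Slc22a7 was at 389.9, 435 and 375 CPM, Cyp2a4 at 207, 291 and 281 CPM and Socs2 at 65.9, 53.9 and 54.7 CPM at 6 months, above every 1-month kidney as at 3 months. Akr1c18 was spread, at 80.8, 352 and 166 CPM. Cyp27b1 was at 1.98, 1.90 and 1.02 CPM and Enpep at 106, 90.3 and 80.1 CPM, below every 1-month kidney. Acadvl, lowest in replicates 1 and 2, was at 87.8, 90.6 and 83.8 CPM at 6 months. Umod was at 1319, 1863 and 1596 CPM, near replicate 3 of the 3-month kidneys. The 6-month kidneys were compared with no group by a test. They entered the fit through its shared spread alone.

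The same interval in NZB/W-F1 kidneys gave far fewer calls, 43 of 14373 (0.299%, 26 higher and 17 lower). Of these 28 were called in the same direction in C57BL/6, which is 65.1% of the NZB/W-F1 calls and 1.13% of the C57BL/6 calls, and 1 in the opposite direction. The difference between the strains' changes was tested itself, as the C57BL/6 minus the NZB/W-F1 log2 fold change: 209 genes passed (1.45%), 134 with the change higher in C57BL/6 (0.932%) and 75 with it lower (0.522%), and 199 of them were also called within C57BL/6. The edgeR test of the difference called 171. Without C57BL/6 3-month replicate 3 the count was 2100, without NZB/W-F1 1-month replicate 3 it was 897, and without NZB/W-F1 3-month replicate 1 it was 453. Leaving out the others gave fewer: without NZB/W-F1 3-month replicates 2 and 3 it was 94 and 73, and without 1-month replicates 1 and 2 of that strain it was 166 and 136. Without C57BL/6 3-month replicates 1 and 2 it was 83 and 121. Without C57BL/6 1-month replicates 1, 2 and 3 it was 95, 94 and 114. The 1-month NZB/W-F1 libraries were deposited under another run of sample numbers than the other 3 groups, so that strain and submission cannot be told apart at that age.

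**Figure D5:**
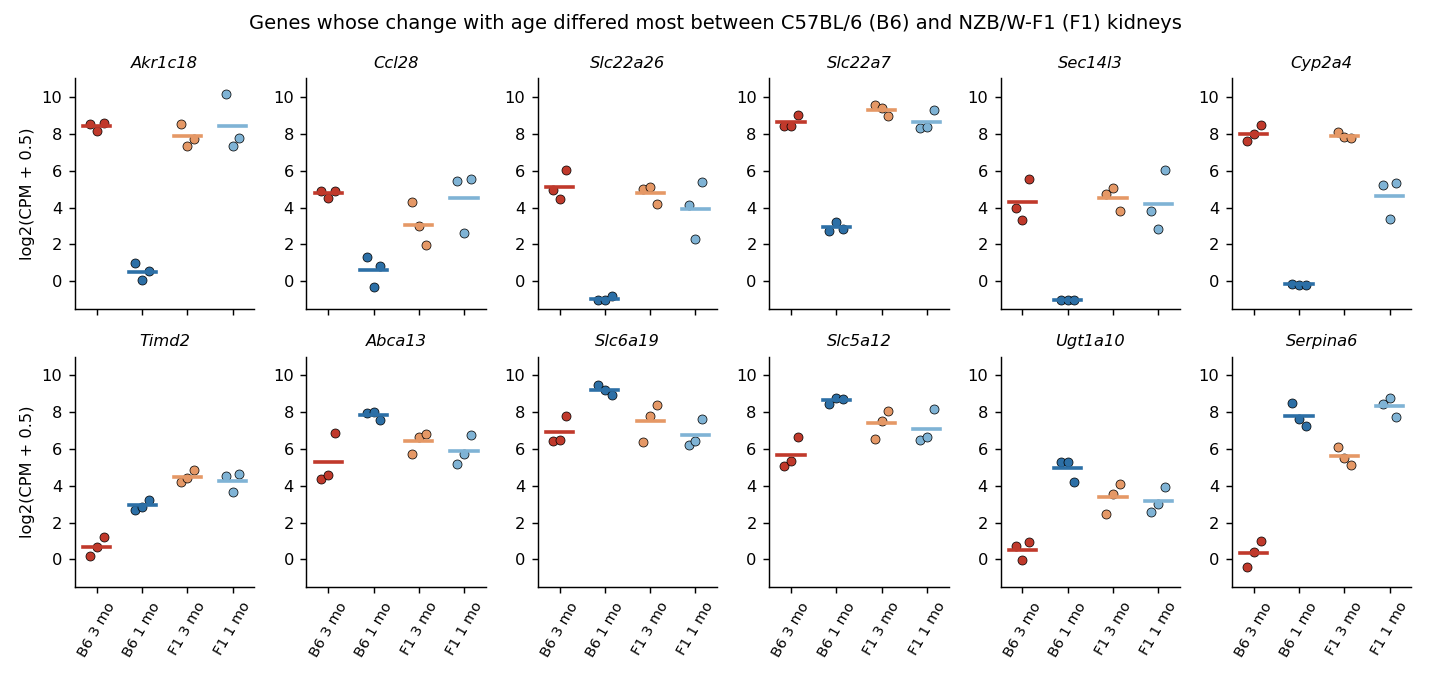
Levels, as log2(CPM + 0.5), of 12 genes in C57BL/6 (B6) and NZB/W-F1 (F1) kidneys of 3 months and 1 month. The genes have the 6 largest called strain differences in each direction. Genes under 5 CPM or with overlap between the C57BL/6 ages could not enter. Points are libraries and bars group means. For Slc22a7 the 1-month C57BL/6 kidneys lie at 6.02 to 8.95 CPM and the 3 other groups between 317 and 768 CPM.

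Slc22a7 had the smallest adjusted p of the named genes for the strain difference. Slc22a7, given above for C57BL/6, was at 768, 674 and 493 CPM in 3-month and 317, 327 and 635 CPM in 1-month NZB/W-F1 kidneys (difference of log2 fold changes 5.03 ± 0.35 (SE), limma adjusted p = 2.6e-06). The 1-month C57BL/6 kidneys were thus far below the other groups. Cyp2a4 was at 269, 229 and 218 CPM in 3-month and 37.0, 9.78 and 39.9 CPM in 1-month NZB/W-F1 kidneys, a rise in both strains that was larger in C57BL/6 (NZB/W-F1 adjusted p = 0.00066; difference of log2 fold changes 4.93 ± 0.52 (SE), limma adjusted p = 8.7e-05). Serpina6 was at 68.8, 45.2 and 34.9 CPM in 3-month and 345, 430.4 and 208 CPM in 1-month NZB/W-F1 kidneys, a fall in both strains that was larger in C57BL/6 (NZB/W-F1 adjusted p = 0.0088; difference of log2 fold changes -4.74 ± 0.60 (SE), limma adjusted p = 0.00071). Akr1c18 was at 373, 164 and 210.2 CPM in 3-month and 1161, 159 and 221 CPM in 1-month NZB/W-F1 kidneys (difference of log2 fold changes 8.44 ± 0.86 (SE), limma adjusted p = 6.4e-05). In that strain 1-month replicate 1 also held 5556 CPM of Alb, made by liver, and 571 CPM of Hsd3b1 and 707 CPM of Star, of adrenal steroid synthesis. The 3-month NZB/W-F1 replicate 1 held 1302 CPM of Hsd3b1 and 1302 CPM of Star, while the other kidneys of that strain at these ages held at most 0.949 CPM of Hsd3b1. The part of these tissues in the Akr1c18 difference was not tested.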

How the data were processed

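The authors deposited a table of CPM per tissue. STAR 2.6, HTSeq, edgeR and the build mm10 stand in the submitters' processing notes; the strand setting is not given in the sources used here. The deposited values are a scaled signal, reads over library size and a scaling factor, and low values were whole multiples of 1 read in 100% of entries within 0.01 reads, so reads were recovered; plain CPM had been assumed when the tests were chosen. The 3 kidney rows that name no gene (25.7 to 29.9% of reads at 3 months, 25.0 to 26.3% at 1 month) were left out. Of 14453 kidney genes 14373 had at least 1 CPM in 3 or more of the 18 kidney libraries and were tested with limma 3.58.1 (R 4.3.3), with trend, on log2(CPM + 0.5), fitting 6 groups by strain and age, two-sided, with Benjamini-Hochberg adjustment. In data simulated from these libraries limma found 50.0% of 2-fold and 90.2% of 4-fold changes between the ages, and 14.3% and 68.6% of such differences between strains. The simulation drew all libraries from 1 mean and 1 spread per gene and changed 98 genes 2-fold and 102 genes 4-fold. No library stood apart in it as 3-month replicate 3 did here, so these shares may not hold for this comparison. edgeR 4.0.16 on the recovered reads, other scaling, filters, pseudocounts, blocks and weights, and leaving out each library were alternatives; replicate 3 as the lone 3-month library and the block within the 6 libraries were added after seeing the data. Gene lists and members were chosen with earlier results of these data known. Genes named are, of called genes with a mean of at least 5 CPM and no overlap between the ages, the 12 with the largest change in each direction (6 for the strain difference; Gm, Rik, pseudogene and variable segment symbols passed over), up to 4 of each list with the smallest p and a fixed panel; nearly all other called list members are named too (a few genes counted in the lists are not reported here), chosen after their values were seen, as were the promoters of Cyp2a4, Akr1c18 and Cyp27b1. Promoters of cell cycle genes had been planned and are not shown, since 3 of 24 members were called. Intervals and floors (3 reads) cover counting error only.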

Additional observations from a re-analysis of the deposited data

Results flagged for a closer look

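The change between 1 and 3 months was compared between the strains, C57BL/6 minus NZB/W-F1, in limma with adjustment over 14373 genes. Of 209 genes that passed, 134 had the higher change in C57BL/6 and 75 the lower. The 12 given here were picked by rule, 6 in each direction, so their even split is not a result. They had the largest differences among genes that passed, with at least 5 CPM and no overlap between the C57BL/6 ages. In the first 6 the C57BL/6 change was the higher one. The difference in log2 fold change was 8.44 for Akr1c18 (7.88 in C57BL/6 and -0.56 in NZB/W-F1, adjusted p = 6.4e-05), 5.63 for Ccl28 (4.17 and -1.46, adjusted p = 0.029) and 5.26 for Slc22a26 (6.08 and 0.82, adjusted p = 0.0041). It was 5.03 for Slc22a7 (5.68 and 0.65, adjusted p = 2.6e-06), 4.95 for Sec14l3 (5.28 and 0.33, adjusted p = 0.021) and 4.93 for Cyp2a4 (8.18 and 3.25, adjusted p = 8.7e-05). In the other 6 the C57BL/6 change was the lower one: -4.74 for Serpina6 (-7.44 and -2.70, adjusted p = 0.00071), -4.60 for Ugt1a10 (-4.41 and 0.19, adjusted p = 0.0029) and -3.24 for Slc5a12 (-2.94 and 0.29, adjusted p = 0.028). Slc6a19 followed with -3.09 (-2.31 and 0.78, adjusted p = 0.034), Abca13 with -3.08 (-2.57 and 0.51, adjusted p = 0.048) and Timd2, a cell surface receptor of the TIM family, with -2.46 (-2.25 and 0.21, adjusted p = 0.010). Ccl28, Sec14l3, Slc5a12, Slc6a19 and Abca13 lost the call in 8, 5, 9, 9 and 9 of the 12 fits that left out 1 library (highest adjusted p 0.10, 0.075, 0.096, 0.11 and 0.14). The other 7 kept it in each of those fits. Fitting the compared groups alone also ended the call of Sec14l3, Slc5a12, Slc6a19 and Abca13 (adjusted p = 0.055, 0.069, 0.094 and 0.12), and edgeR that of Slc5a12 and Abca13 (adjusted p = 0.055 and 0.11). The 1-month NZB/W-F1 libraries came under another run of sample numbers, and the part of this in the differences was not tested.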

How the results depend on the processing

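Of 218 genes named by rule, 132 were called between 3 and 1 months. Of these, 37 kept the call under each alternative. Setting aside replicate 3 as the lone 3-month library and the block within the 6 libraries, 71 kept it. The called genes kept their direction with replicate 3 alone and without it. Genes that were not called could turn: Dbp (log2 fold change -0.59) was above every 1-month kidney in replicate 3 and below them in replicates 1 and 2. Against 2475 calls (48.5% higher), fitting the 6 compared libraries alone gave 1628, library weights 6965 and replicate 3 as the lone 3-month library 327 (239 higher, 88 lower); fits that left out 1 library gave 977 to 3930. edgeR, median-of-ratios scaling, no filter and a pseudocount of 0.1 gave 2201, 2450, 2461 and 2476. Against 209 genes that differed between strains (134 higher, 75 lower), edgeR gave 171 (135 and 36), the compared groups alone 93 (73 and 20) and weights 6448 (3223 and 3225), and leaving out 1 library gave 73 to 2100. Lists with a call numbered 37, 19 with replicate 3 as the lone 3-month library, and 27 to 39 when 1 library was left out. In spleen 2 clock genes became 1 by edgeR and 0 within the compared groups (6 at an unadjusted p under 0.05 in the fit over all groups). Replicate numbers did not pair the kidneys: same-numbered libraries had deviations from the group means that correlated at 0.087, -0.185 and -0.172, and a block gave 2635 calls between the ages and 254 between strains (136 and 118), or within the 6 libraries 271 (187 higher, 84 lower) with 19 lists. The causes were not tested. Depths of 5456869 to 11423419 gene reads limit the genes near the floor.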
